A study of Mus musculus with 24 samples.

Results

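The genes described here carry the corticosteroid signal in the mouse hypothalamus: the glucocorticoid receptor Nr3c1, the mineralocorticoid receptor Nr3c2, the steroid-activating enzyme Hsd11b1, and 6 genes that glucocorticoids are known to induce, Fkbp5, Sgk1, Tsc22d3, Zbtb16, Cdkn1a and Sult1a1. These 9 genes were chosen by name from the 55471 genes counted. RNA was sequenced from the hypothalami of 18-week-old male C57BL6/J mice that carried a gastric catheter, had free access to chow and were killed on d14 or on d14+3, with 1 library per mouse. ExpOF mice received a liquid diet with 20% sucrose through the catheter for 23 hr per day, raised in steps to 150% of energy infusion by day 9, and Control mice received sterile water at matching flow rates. Mice of the d14+3 groups were taken 3 days after the overfeeding ended, days on which both groups were infused with water at 100 µL per hour. The 4 groups of 6 mice are Control d14, ExpOF d14, Control d14+3 and ExpOF d14+3. All 24 mice were wild type and were infused, so no group went without the surgery. Control d14 replicate 4, whose RNA the study judged to be poor although its label gives a RIN of 9.8, was left out, so that 5 Control d14 mice and 23 libraries remain unless all 24 are named.

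Corticosterone from the adrenal gland reaches the brain and binds both receptors, which then act as transcription factors. The mineralocorticoid receptor binds the hormone with the higher affinity and is occupied at low levels, whereas the glucocorticoid receptor is engaged as the hormone rises with the time of day or with stress. Hsd11b1 regenerates active hormone from its inactive keto form inside the cell, and Fkbp5, a cochaperone, holds the glucocorticoid receptor in a state of low affinity and is itself induced by it. In the hypothalamus this signal closes the feedback loop on Crh and Avp, the peptides that drive the pituitary and the adrenal.

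Libraries held between 8928182 and 34848437 counts, and every member had at least 53 counts in each of the 23 libraries. By the dates in the labels, 3 mice of every group were killed in July and 3 in September. The labels give no hour of death and no plasma hormone. The RNA integrity number (RIN) was 9.20 ± 0.860 (SD, n = 5) in Control d14, 9.75 ± 0.138 (n = 6) in ExpOF d14, 8.62 ± 1.09 (n = 6) in Control d14+3 and 9.43 ± 0.450 (n = 6) in ExpOF d14+3. All 10 markers of hypothalamic neurons were detected in these libraries, with sums from 826 to 1461 CPM (counts scaled by the effective library size) in Control d14, from 764 to 1008 CPM in ExpOF d14, from 650.0 to 1010 CPM in Control d14+3 and from 593 to 840 CPM in ExpOF d14+3. The 5 thalamus markers summed to between 120 and 467 CPM in Control d14, between 128 and 309 CPM in ExpOF d14, between 350.0 and 815 CPM in Control d14+3 and between 319 and 754 CPM in ExpOF d14+3. Control d14 replicate 1, on which some results below depend, had the highest sums of pituitary markers (105 CPM, against at most 20.2 CPM in the other groups) and of leptomeninges markers (85.8 CPM) of its group. Choroid plexus markers summed to 3032 CPM in Control d14 replicate 5 and 1296 CPM in ExpOF d14+3 replicate 4, and to at most 65.3 CPM in the other 2 groups. In a bulk sample, fewer cells of a type cannot be told apart from less RNA per cell.

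The receptors bind DNA as pairs at a palindrome whose arms read AGAACA and TGTTCT, 3 bases apart. Promoters of 300 bases, from 250 bases before to 50 bases after the RefSeq start (GRCm38.p6), were found for 7 of the 9 genes, 15 promoters in all. At least 1 arm, searched on both strands, stood in 5 of the 15, beside 19% of the 32851 promoters in the table. The palindrome with all 12 letters stood in 1 of the 15, a promoter of Sgk1, and in 3 of the 32851 (0.00913%). With up to 2 letters off, matches that include the exact one, it stood in 3 of the 15 and in 1.84% of all promoters. These are matches of letters and not sites of binding, and a promoter without a match holds no such letters in its 300 bases only. Most member promoters with a match belong to Sgk1, which also has the most promoters of the 7 genes. The shares above are of promoters and not of genes.

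Of the promoters shown, the first carries the exact palindrome, those of Sult1a1 and Tsc22d3 carry arms but no exact palindrome, and that of Fkbp5, a widely used readout of receptor activity, carries none. Capitals mark the 6-letter arms.
Sgk1, chr10:21993640-21993939, plus strand: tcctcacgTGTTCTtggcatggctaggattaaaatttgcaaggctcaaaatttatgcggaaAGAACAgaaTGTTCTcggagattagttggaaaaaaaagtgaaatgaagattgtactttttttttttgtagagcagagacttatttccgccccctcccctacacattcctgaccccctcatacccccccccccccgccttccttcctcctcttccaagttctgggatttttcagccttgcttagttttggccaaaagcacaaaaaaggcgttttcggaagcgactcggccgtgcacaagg
Sult1a1, chr7:126676369-126676668, minus strand: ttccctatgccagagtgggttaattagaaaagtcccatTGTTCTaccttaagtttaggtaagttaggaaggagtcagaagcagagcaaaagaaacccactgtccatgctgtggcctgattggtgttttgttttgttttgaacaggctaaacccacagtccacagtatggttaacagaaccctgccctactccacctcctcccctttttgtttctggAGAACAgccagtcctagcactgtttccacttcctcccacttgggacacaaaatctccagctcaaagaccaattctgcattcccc
Tsc22d3, chrX:140600473-140600772, minus strand: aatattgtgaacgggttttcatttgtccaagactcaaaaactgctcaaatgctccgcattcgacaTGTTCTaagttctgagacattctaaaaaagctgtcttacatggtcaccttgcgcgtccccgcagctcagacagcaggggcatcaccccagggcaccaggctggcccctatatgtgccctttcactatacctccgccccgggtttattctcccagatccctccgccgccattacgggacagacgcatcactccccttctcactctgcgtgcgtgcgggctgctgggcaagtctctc
Fkbp5, chr17:28486100-28486399, minus strand: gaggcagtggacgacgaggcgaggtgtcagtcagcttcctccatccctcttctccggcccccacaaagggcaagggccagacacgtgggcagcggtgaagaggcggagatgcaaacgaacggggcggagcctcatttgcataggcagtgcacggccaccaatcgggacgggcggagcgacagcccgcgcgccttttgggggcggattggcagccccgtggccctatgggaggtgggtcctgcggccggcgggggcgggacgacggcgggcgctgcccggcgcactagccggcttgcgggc
In the Sgk1 promoter the palindrome begins 189 bases before the start and a further arm 242 bases before it. In the Sult1a1 promoter the arms begin 212 and 34 bases before the start, and the latter is part of a palindrome with 2 letters off. The single arm of Tsc22d3 begins 185 bases before its start. The counts are per gene, so they do not tell which of the 6 Sgk1 promoters or the 3 Tsc22d3 promoters in the table was in use.

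Levels were compared between genes per length, as CPM per kilobase of gene length (RPKM). Tsc22d3, which encodes the leucine zipper protein GILZ, was the most abundant member at 19.4 ± 2.24 RPKM (SD, n = 23). It was followed by Nr3c1 at 13.0 ± 1.38 RPKM. Tsc22d3 was higher than Nr3c1 in 23 of 23 libraries, and the ranges of these 2 genes did not overlap.

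Nr3c1 was higher than Sgk1 in each of the 23 libraries as well, although their ranges overlapped, and the mineralocorticoid receptor Nr3c2 stood at 4.14 ± 0.479 RPKM. Sgk1, a kinase named for its response to serum and glucocorticoids, stood at 6.74 ± 1.65 RPKM. Sult1a1, a phenol sulfotransferase, stood at 4.94 ± 0.845 RPKM and Fkbp5 at 3.66 ± 0.342 RPKM. Sult1a1, Nr3c2, Fkbp5 and Hsd11b1 (3.28 ± 0.572 RPKM) followed each other in this order. The higher one of each neighbouring pair was higher in only 16 or 17 of 23 libraries. Genes further apart in the order were not compared library by library. Cdkn1a, an inhibitor of cyclin-dependent kinases, and Zbtb16, a zinc finger repressor of transcription, were the lowest at 2.08 ± 0.274 and 1.67 ± 0.381 RPKM, with Cdkn1a the higher in 17 of 23 libraries.

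**Figure D1:**
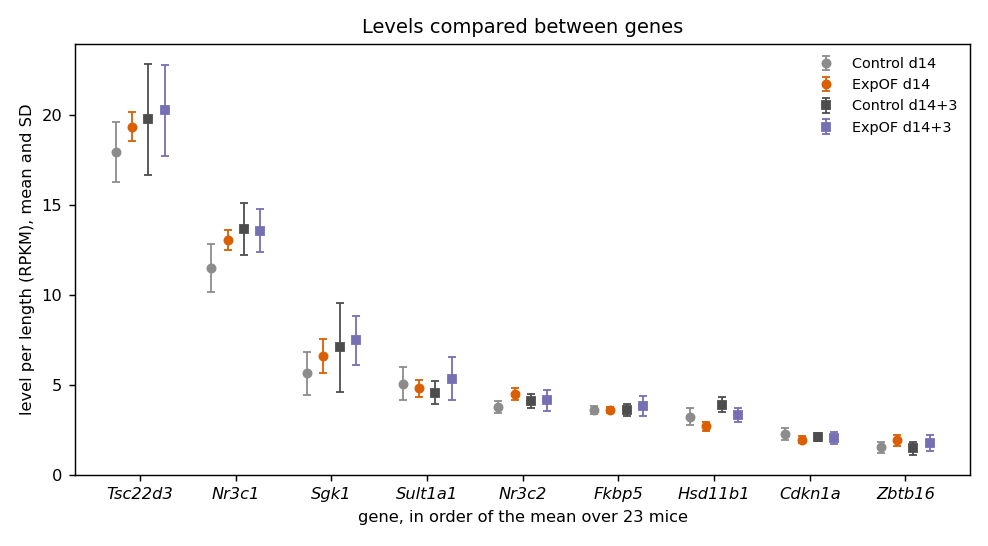
Level per length (RPKM, vertical axis) of each gene (horizontal axis, in order of its mean over 23 mice), with the mean (point) and the SD (bar) of each group: circles for d14, squares for d14+3, n = 5 in Control d14 and 6 in the other groups. Tsc22d3 and Nr3c1 stand above the others in every group, and Sult1a1, Nr3c2, Fkbp5 and Hsd11b1 lie close together.

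Hsd11b2, which inactivates the hormone, did not pass the filter on low counts and reached at most 0.360 CPM in any of the 23 libraries. The spread over all 23 mice, as a coefficient of variation of the CPM, was smallest for Fkbp5 (9.34%) and largest for Sgk1 (24.5%) and Zbtb16 (22.8%). From the lowest to the highest mouse, Zbtb16 differed 2.85-fold and Fkbp5 1.50-fold. Zbtb16, Cdkn1a and Sult1a1 rest on the fewest counts, with medians of 212, 186 and 184 per library, against 2417 for Nr3c1.

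On the mm10 genome, Nr3c1 lies at chr18:39410545-39519421 (minus strand) and Hsd11b1 at chr1:193221634-193264075 (minus strand). Hsd11b1 lies within the span of Lamb3, a laminin gene on the opposite strand with 4931 counts over all 24 libraries. Sult1a1 at chr7:126672865-126676432 (minus strand) overlaps Sgf29 at its end, and Nr3c2 at chr8:76899442-77242996 (plus strand) overlaps the noncoding RNA gene Gm10649 at its start, both on the opposite strand. The libraries were stranded, but whether the counting used the strand is not given in the sources used here, so reads of these pairs may not be told apart. Nr3c1, Sgk1, Tsc22d3 and Zbtb16 overlap no other annotated gene.

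The first question was whether overfeeding moved this pathway by d14. By edgeR's quasi-likelihood test, adjusted over 18992 genes, 0 of the 9 genes passed an adjusted p under 0.05 on d14, where 0.00527% of all genes passed, and the smallest adjusted p of a member was 0.138. At an unadjusted p under 0.05, 3 of the 9 passed (33.3%), beside 26.7% of all genes tested, so their share was close to that of the genome. Of these, 2 were higher in ExpOF mice (13.1% of all genes) and 1 was lower (13.6% of all genes). DESeq2 also called 0 of the 9, and 196 genes in all. The groups overlapped for each of the 9 genes, while 2.5% of all genes had groups without overlap. The median log2 fold change was 0.11 over the members and -0.02 over all genes.

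On d14+3, 0 of the 9 genes passed the adjusted threshold, and so did 0% of all genes. The smallest adjusted p of a member was 0.645 (edgeR), and DESeq2 called 0 of the 9 and 42 genes in all. At an unadjusted p under 0.05, 1 of the 9 passed, beside 7.11% of all genes. It was lower in ExpOF mice, as were 4.2% of all genes, and no member was higher, against 2.91% of all genes. The groups overlapped for each member, against 0.421% of genes without overlap. The median log2 fold change was 0.03 over the members and 0.01 over all genes.

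The difference between the days in the effect of overfeeding passed the adjusted threshold for 0 of the 9 genes and for 0% of all genes (edgeR). At an unadjusted p under 0.05, 0 of the 9 and 4.42% of all genes passed, and DESeq2 called 0 genes.

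**Figure D2:**
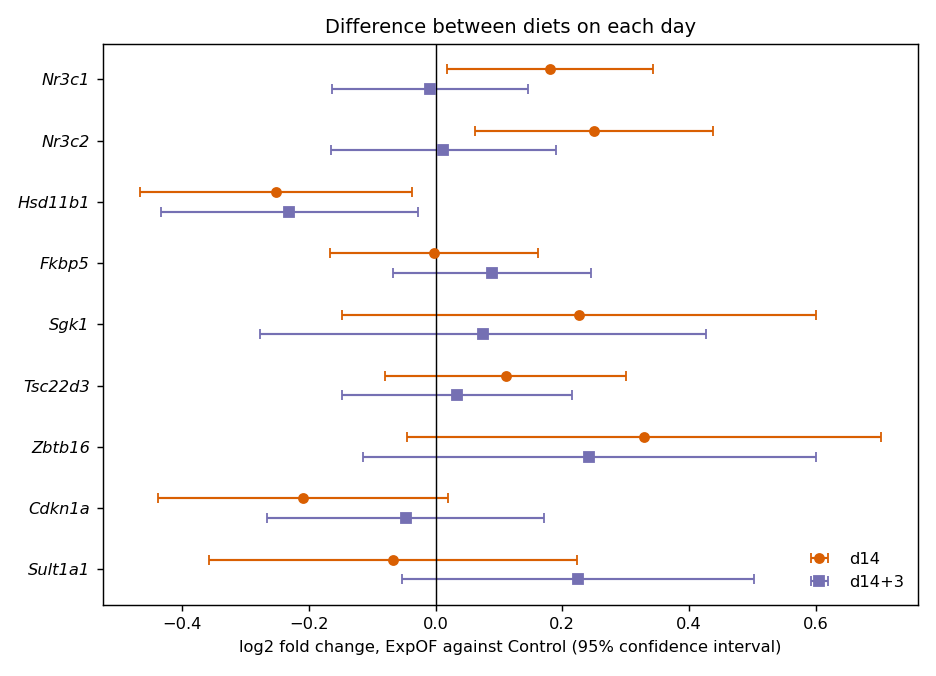
Log2 fold change of ExpOF against Control mice (horizontal axis) for each gene (vertical axis), on d14 (circles) and d14+3 (squares), with 95% confidence intervals from edgeR. The intervals of Nr3c1 and Nr3c2 lie above 0 on d14 only, those of Hsd11b1 lie below 0 on both days, and the other 6 genes have intervals that include 0.

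Both receptors were somewhat higher in ExpOF mice on d14, by less than the adjusted test could call. Nr3c1 was at 77.7, 78.5, 89.9, 93.6 and 102 CPM in the Control d14 mice. In ExpOF d14 mice it ran from 94.7 to 105 CPM with a median of 101 CPM. The ExpOF values were thus tightly grouped at the upper end of the Control range, with 2 of 6 above every Control mouse and 4 of 5 Control mice below every ExpOF mouse. The log2 fold change was 0.18 (SE 0.0789, 95% interval 0.0183 to 0.343, unadjusted p = 0.0307, edgeR adjusted p = 0.157). The exact permutation test of the mean log2 CPM gave a two-sided p of 0.0238, where 0.00216 is the smallest these groups allow.

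Nr3c2, which binds the same hormone more tightly, was at 21.9, 22.9, 24.2, 24.98 and 27.6 CPM in Control d14 and ran from 26.8 to 33.0 CPM (median 28.3) in ExpOF d14. Only 1 Control mouse reached into the ExpOF range. The log2 fold change was 0.25 (SE 0.0909, 95% interval 0.0627 to 0.437, unadjusted p = 0.0110, edgeR adjusted p = 0.138), and the two-sided exact permutation test gave p = 0.00649.

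Both receptors were called only without Control d14 replicate 1, the highest Control mouse for either gene: Nr3c1 then stood at 0.24 (edgeR adjusted p = 0.0340) and Nr3c2 at 0.30 (edgeR adjusted p = 0.0295), in a fit that called 4220 genes. With all 24 libraries the log2 fold changes were 0.31 and 0.41, with edgeR adjusted p of 0.0800 and 0.0764. The library added there, Control d14 replicate 4, whose RNA the study judged poor, was far below its group. It stood at 44.9 CPM for Nr3c1 and 8.91 CPM for Nr3c2. With RIN as a covariate and 23 libraries the log2 fold changes were 0.18 and 0.25.

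By d14+3 the receptors differed little between the diets. Nr3c1 ran from 86.9 to 116 CPM (median 106) in Control d14+3 and from 90.1 to 115 CPM (median 103) in ExpOF d14+3. Nr3c2 ran from 23.4 to 29.0 CPM (median 27.3) and from 20.4 to 30.5 CPM (median 27.0). These ranges cover each other almost fully. The log2 fold changes were -0.01 (95% interval -0.163 to 0.146) for Nr3c1 and 0.01 (95% interval -0.166 to 0.190) for Nr3c2. The change of the effect from d14 to d14+3 was -0.19 for Nr3c1 (unadjusted p = 0.0940) and -0.24 for Nr3c2 (unadjusted p = 0.0696), both with an edgeR adjusted p of 0.903, so a difference between the days was not shown.

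**Figure D3:**
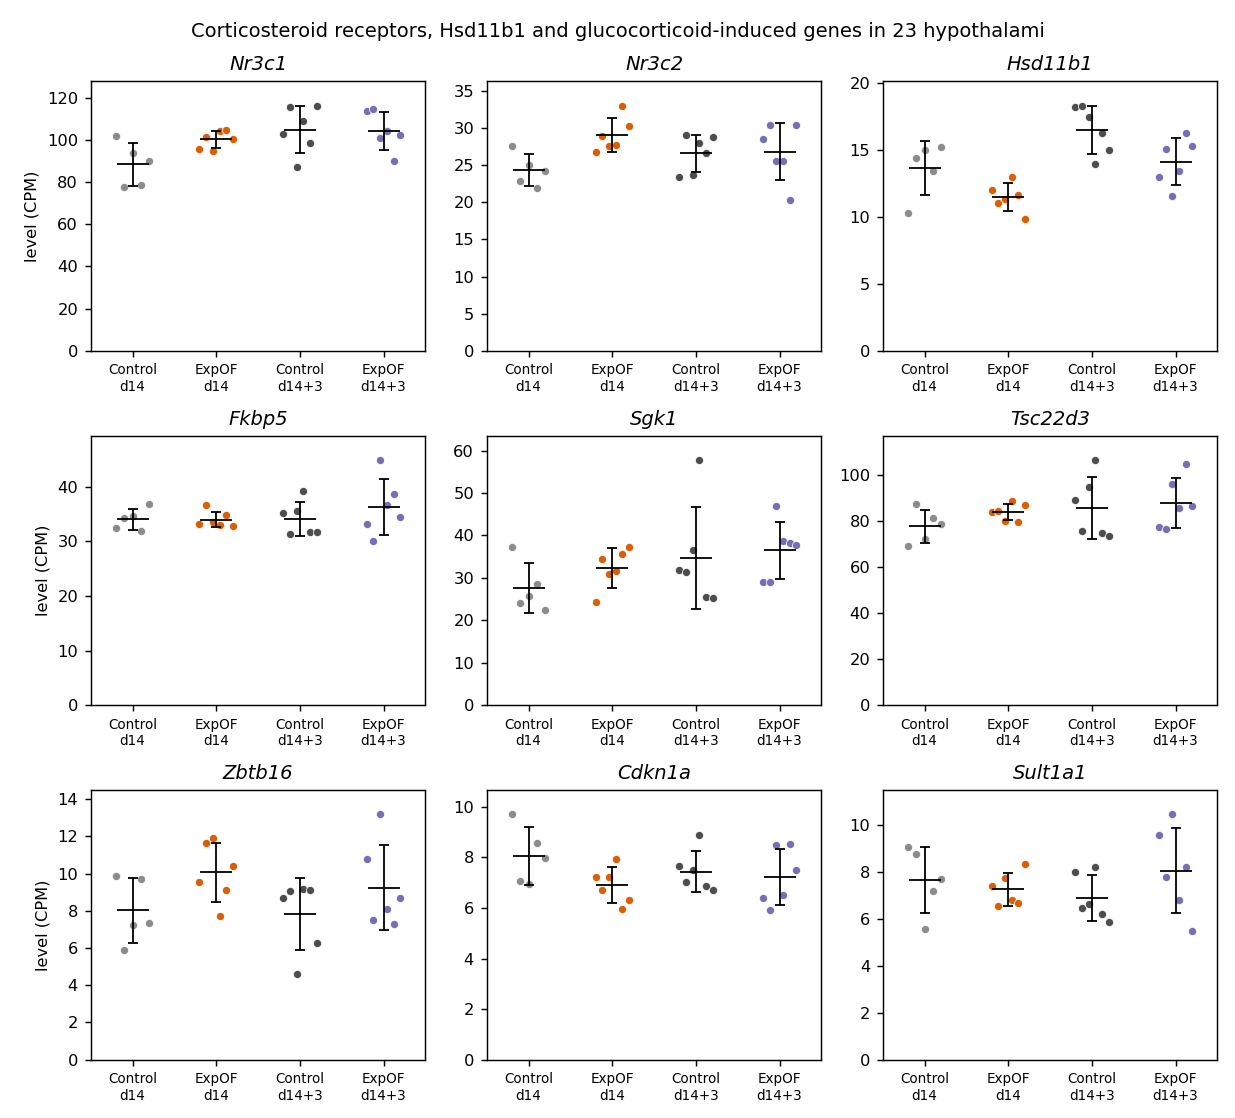
Level of each gene (CPM, vertical axes starting at 0) in every mouse of the 4 groups (horizontal axes). Points are mice, the horizontal mark is the mean and the bar the SD, n = 5 in Control d14 and 6 in the other groups. The mean of Hsd11b1 is lower in ExpOF than in Control mice on both days and higher on d14+3 than on d14, while the groups of Fkbp5 lie at one level.

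Hsd11b1 was the only member with an unadjusted p under 0.05 on both days, and it was lower in ExpOF mice each time. On d14 the Control mice were at 10.3, 13.4, 14.4, 15.03 and 15.2 CPM, and ExpOF mice ran from 9.88 to 13.0 CPM with a median of 11.5 CPM. Apart from Control replicate 1 at 10.3 CPM, each Control mouse was above all ExpOF mice. The log2 fold change was -0.25 (SE 0.104, 95% interval -0.467 to -0.0367, unadjusted p = 0.0236, edgeR adjusted p = 0.147), and the two-sided exact permutation test gave p = 0.0628.

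On d14+3 the Control mice ran from 13.9 to 18.3 CPM (median 16.8) and the ExpOF mice from 11.5 to 16.3 CPM (median 14.27). Again the groups overlapped, with 3 Control mice above every ExpOF mouse and 3 ExpOF mice below every Control mouse. The log2 fold change was -0.23 (SE 0.0984, 95% interval -0.434 to -0.0278, unadjusted p = 0.0275, edgeR adjusted p = 0.645), and the two-sided exact permutation test gave p = 0.0476. The fold changes of the 2 days differed by 0.02 (95% interval -0.275 to 0.317).

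Within the July cohort the d14 value was -0.36 and within the September cohort -0.06, whereas on d14+3 the cohorts gave -0.22 and -0.25. Without Control d14 replicate 1, in a fit that called 4220 of 19206 genes, the d14 value was -0.33 (edgeR adjusted p = 0.0249). With RIN as a covariate it was -0.31 on both days, and in the libraries with a RIN of at least 8 it was -0.36 on d14+3.

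The 6 induced genes gave no difference between the diets that passed either threshold on either day in the 23 libraries without covariates. Fkbp5 was the flattest: 31.9, 32.5, 34.3, 34.7 and 36.9 CPM in Control d14, and from 32.8 to 36.6 CPM (median 33.4) in ExpOF d14. Its log2 fold change was -0.003 with a 95% interval from -0.167 to 0.162 (unadjusted p = 0.974, edgeR adjusted p = 0.986). On d14+3 it ran from 31.3 to 39.3 CPM (median 33.5) in Control and from 30.03 to 44.9 CPM (median 35.5) in ExpOF mice. The log2 fold change was 0.09 (95% interval -0.0677 to 0.245, edgeR adjusted p = 0.789), and 0.02 without ExpOF d14+3 replicate 3.

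Tsc22d3, which curbs inflammatory transcription, was at 69.2, 72.3, 78.5, 81.5 and 87.4 CPM in Control d14 and from 79.7 to 88.6 CPM (median 84.1) in ExpOF d14. On d14+3 it ran from 73.6 to 107 CPM (median 82.5) in Control and from 76.6 to 105 CPM (median 86.1) in ExpOF mice. The log2 fold changes were 0.11 (SE 0.0926, edgeR adjusted p = 0.432) and 0.03 (SE 0.0880, edgeR adjusted p = 0.923). The d14 value turned to -0.08 with all 24 libraries, and the d14+3 value to -0.03 in the September cohort and to -0.02 without ExpOF d14+3 replicate 5, so no direction is given for Tsc22d3. Control d14 replicate 4, part of the 24 only, was at 148 CPM.

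Sgk1, whose kinase acts on ion channels and transporters, was at 22.4, 24.0, 25.8, 28.6 and 37.3 CPM in Control d14 and from 24.3 to 37.3 CPM (median 33.1) in ExpOF d14, so the ranges nearly coincide. On d14+3 it ran from 25.3 to 57.8 CPM (median 31.6) in Control and from 29.1 to 46.8 CPM (median 37.9) in ExpOF mice. The log2 fold changes were 0.23 (95% interval -0.148 to 0.601) and 0.07 (95% interval -0.278 to 0.428), with edgeR adjusted p of 0.413 and 0.907. The cohorts differed: 0.38 in July and 0.01 in September on d14, and 0.38 and -0.20 on d14+3. Without Control d14 replicate 1 the d14 value was 0.36. Without ExpOF d14+3 replicate 3 the d14+3 value was -0.01, and it ranged up to 0.28 when other single libraries were left out.

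Zbtb16 had the largest estimate of the members and a wide interval. It was at 5.89, 7.24, 7.35, 9.72 and 9.88 CPM in Control d14 and from 7.73 to 11.9 CPM (median 9.97) in ExpOF d14, with 3 ExpOF mice above every Control mouse. On d14+3 it ran from 4.62 to 9.19 CPM (median 8.88) in Control and from 7.26 to 13.2 CPM (median 8.39) in ExpOF mice. The log2 fold changes were 0.33 (95% interval -0.0443 to 0.704, unadjusted p = 0.0814, edgeR adjusted p = 0.233) and 0.24 (95% interval -0.115 to 0.600, edgeR adjusted p = 0.775). The July mice gave 0.57 and 0.56 (unadjusted p = 0.0315 and 0.0331 in edgeR), and the September mice 0.03 and -0.05. With RIN as a covariate the values were 0.45 and 0.40 (unadjusted p = 0.0184 and 0.0327 in edgeR, adjusted p = 0.0988 and 0.358). The d14 value also had an unadjusted p under 0.05 in edgeR with all 24 libraries (0.49) and with only the groups compared (0.32). Control d14 replicate 4, part of the 24 only, was at 2.56 CPM. Without ExpOF d14+3 replicate 3 the d14+3 value was 0.12.

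Cdkn1a was at 6.93, 7.08, 7.99, 8.57 and 9.70 CPM in Control d14 and from 5.97 to 7.94 CPM (median 6.98) in ExpOF d14. The log2 fold change was -0.21 (95% interval -0.438 to 0.0192, unadjusted p = 0.0709, edgeR adjusted p = 0.218), and -0.13 without Control d14 replicate 1. On d14+3 the value was -0.05 (edgeR adjusted p = 0.906), turning to 0.06 in the July cohort and to 0.01 with RIN as a covariate or without Control d14+3 replicate 4. Sult1a1 was at 5.54, 7.18, 7.67, 8.74 and 9.04 CPM in Control d14, and ExpOF d14 mice lay within this range, from 6.55 to 8.34 CPM. Its log2 fold change was -0.07 on d14 (edgeR adjusted p = 0.775) and 0.22 on d14+3 (95% interval -0.0534 to 0.502, edgeR adjusted p = 0.760). With all 24 libraries the d14 value of Sult1a1 was -0.48 (edgeR adjusted p = 0.153), where Control d14 replicate 4 stood at 24.7 CPM. Without Control d14 replicate 1 the d14 value was 0.004, or -0.16 without Control d14 replicate 3. The d14+3 value was 0.14 without ExpOF d14+3 replicate 3.

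Days were then compared within each diet. In Control mice, 0 of the 9 genes passed the adjusted threshold between d14 and d14+3, where 1.15% of all genes did, and the smallest adjusted p of a member was 0.139 (edgeR). At an unadjusted p under 0.05, 2 of the 9 passed, beside 12.7% of all genes. In ExpOF mice 0 of the 9 and 0% of all genes passed the adjusted threshold, and 1 of the 9 and 7.79% of all genes passed at an unadjusted p under 0.05. DESeq2 called 0 of the 9 in either diet, with 531 genes in Control and 190 in ExpOF mice.

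Hsd11b1 was higher on d14+3 in both diets. The log2 difference was 0.29 in ExpOF mice (SE 0.1004, unadjusted p = 0.00747, edgeR adjusted p = 0.313, exact permutation p = 0.0173) and 0.27 in Control mice (SE 0.103, unadjusted p = 0.0143, edgeR adjusted p = 0.238, exact permutation p = 0.0368). In both diets 4 mice of d14+3 lay above every mouse of d14. Nr3c1 was higher on d14+3 in Control mice by 0.25 (SE 0.0788, unadjusted p = 0.00428, edgeR adjusted p = 0.139, exact permutation p = 0.0411), and by 0.06 in ExpOF mice (unadjusted p = 0.442). The Control value for Nr3c1 was called without Control d14 replicate 1 (0.31, edgeR adjusted p = 0.0480) or without Control d14+3 replicate 3 (0.30, edgeR adjusted p = 0.0469). Those fits called 288 of 19206 and 238 of 18841 genes. The comparison of Control days shares its Control d14 mice with the comparison of diets on d14, and Control d14 was the lowest group for both receptors.

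The thalamus markers were also higher on d14+3. All 5 of 5 had an unadjusted p under 0.05 and were higher on d14+3 in both diets, with a median log2 difference of 1.1997 in ExpOF and 1.02 in Control mice. The 10 markers of hypothalamic neurons had lower estimates on d14+3 in both diets, 10 of 10 by sign, with medians of -0.32 and -0.44. The part of either list in the values of Hsd11b1 and Nr3c1 was not tested. Between the diets, 0 of these 5 markers had an unadjusted p under 0.05 on either day, with medians of -0.28 on d14 and -0.10 on d14+3. The leptomeninges markers were lower in ExpOF mice on d14, 7 of 7 by sign and 3 at an unadjusted p under 0.05, and their part in the d14 values was not tested either. Over all genes, 13.6% were lower and 13.1% higher at that threshold on d14. Of the hypothalamic neuron markers, 5 of 10 were lower and 1 higher at that threshold on d14, with a median of -0.30. Of the other cell type markers on d14, 3 of 6 for mural cells, 3 of 5 for choroid plexus, 2 of 8 for oligodendrocytes, 1 of 7 for endothelium and 1 of 2 tested for pituitary were lower at that threshold. For astrocytes 2 of 6 and for hippocampus and cortex 1 of 5 tested were higher, for microglia and for neurons 1 was higher and 1 lower, and for erythrocytes 0 of 5 passed.

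The next comparison asked whether the induced genes varied together from mouse to mouse. Over the 23 mice, 3 of the 15 pairs of the 6 induced genes were related at an adjusted p under 0.05 (Pearson's r of log2 CPM, permutation test, Benjamini-Hochberg over 15 pairs). They join Fkbp5, Sgk1 and Tsc22d3. Pairs of other genes were not tested, so no share over all genes stands beside this count. Fkbp5 and Tsc22d3 had r = 0.69 (permutation p = 0.00028, adjusted 0.0042) and Spearman's rho = 0.64 (permutation p = 0.00125, adjusted 0.0187). Without the 2 mice farthest in Fkbp5, Control d14+3 replicate 4 and ExpOF d14+3 replicate 3, r was 0.61, and within the cohorts it was 0.66 in July (n = 12) and 0.84 in September (n = 11). On deviations from the group means r was 0.70.

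Sgk1 and Tsc22d3 had r = 0.63 (permutation p = 0.00148, adjusted 0.0111) and rho = 0.56 (permutation p = 0.00646, adjusted 0.0484). Without those 2 mice r was 0.41, and within the cohorts it was 0.66 and 0.60. Fkbp5 and Sgk1 had r = 0.58 (permutation p = 0.00456, adjusted 0.0228) and rho = 0.48 (permutation p = 0.0236, adjusted 0.118). This pair fell to r = 0.29 without the 2 mice and so rests on them, although both cohorts gave positive values of 0.60 and 0.73.

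With Control d14 replicate 4 included, the relations of Tsc22d3 were lost: r was 0.24 with Fkbp5 (adjusted permutation p = 0.328) and 0.05 with Sgk1 (adjusted permutation p = 0.795), while Fkbp5 and Sgk1 had r = 0.64 (adjusted permutation p = 0.0115). Zbtb16 passed with no other gene, with r of 0.18 to Fkbp5, 0.30 to Sgk1 and -0.07 to Tsc22d3 (permutation p = 0.415, 0.165 and 0.747). On deviations from the group means, 3 further pairs passed, each with Cdkn1a: r was 0.50 with Fkbp5, 0.58 with Sgk1 and 0.56 with Tsc22d3 (adjusted permutation p = 0.0336, 0.0181 and 0.0181). The permutations on deviations did not allow for the group means that were fitted, so these p can be too small. Depth, RNA quality and dissection are shared by all genes of a mouse.

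**Figure D4:**
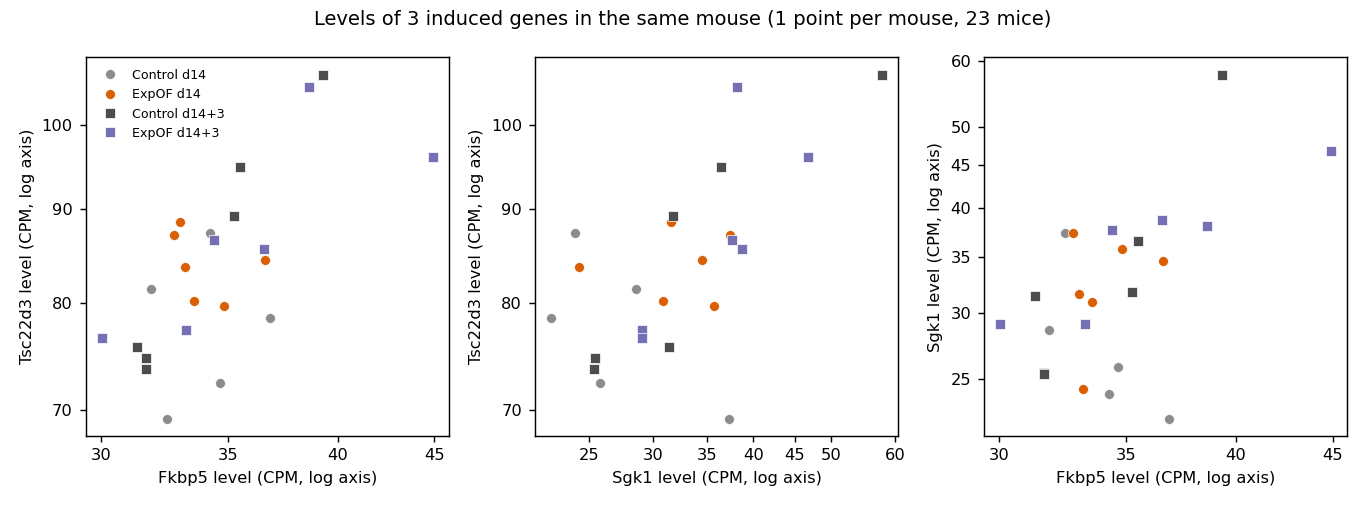
Levels of Fkbp5, Sgk1 and Tsc22d3 (CPM, log axes) set against each other, 1 point per mouse, circles for d14 and squares for d14+3, grey for Control and coloured for ExpOF mice. The points rise together in each panel, with 1 Control d14+3 mouse at 57.8 CPM of Sgk1 at the far end and ExpOF and Control mice mixed along the range.

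A wider list held 30 genes that glucocorticoids induce, all of them tested. On d14, 14 had a higher and 16 a lower estimate in overfed mice, 0 passed the adjusted threshold, while at an unadjusted p under 0.05 there was 1 gene higher in ExpOF mice and 5 were lower (13.1% and 13.6% of all genes), with a median log2 fold change of -0.08 (-0.02 over all genes). The metallothioneins, which bind zinc and are classic targets, were among the lower ones. Mt2 ran from 19.5 to 32.4 CPM in ExpOF d14 and from 39.8 to 53.3 CPM in Control d14, without overlap, a log2 fold change of -0.57 (SE 0.139, edgeR adjusted p = 0.135). Mt1 was at 107 ± 8.63 CPM (SD, n = 6) against 158 ± 32.8 CPM (n = 5), a log2 fold change of -0.55 (SE 0.144, edgeR adjusted p = 0.135).

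On d14+3, 0 of the 30 passed the adjusted threshold, while 2 were higher and 4 lower at an unadjusted p under 0.05 (2.91% and 4.2% of all genes), with a median of -0.02 (0.01 over all genes). Mt1 was again lower at -0.32 (edgeR adjusted p = 0.651), whereas Mt2 stood at 0.23 (edgeR adjusted p = 0.751). Dusp1, a phosphatase that ends MAP kinase signalling, was at 11.4 ± 2.26 CPM against 15.7 ± 2.90 CPM (SD, n = 6 each), a log2 fold change of -0.46 (SE 0.136, edgeR adjusted p = 0.384). Ddit4, an inhibitor of mTORC1 induced by stress, was at 27.9 ± 3.68 CPM against 36.1 ± 7.00 CPM (SD, n = 6 each), a log2 fold change of -0.37 (SE 0.118, edgeR adjusted p = 0.438). The immediate early genes, which respond to stimulation within minutes, had 8 of 8 lower estimates in the same mice. Of these, 2 had an unadjusted p under 0.05, beside 4.2% of all genes. The part of the immediate early genes in the values of Dusp1 was not tested.

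Between the days of Control mice, where 1.15% of all genes passed the adjusted threshold, 1 of the 30 genes did. This was Klf9, a zinc finger factor induced by the receptor, at 73.6 ± 6.34 CPM on d14 (SD, n = 5) and 90.1 ± 8.87 CPM on d14+3 (n = 6), a log2 difference of 0.29 (SE 0.0678, edgeR adjusted p = 0.0284). In ExpOF mice the same difference was 0.12 (edgeR adjusted p = 0.713), and the diets differed in the change between days for 0 of the 30 genes at the adjusted threshold. Klf9 had log2 fold changes of 0.13 on d14 and -0.05 on d14+3 between the diets, with edgeR adjusted p of 0.221 and 0.839. The thalamus and hypothalamic neuron markers also differed between the days, and their part in the Klf9 value was not tested. Without Control d14 replicate 2, the comparison of Control days called 24 of 19228 genes, against 218 of 18992. Klf9 was not followed in that fit. Of 31 promoters found for 25 of these 30 genes, 3 carried an arm of the motif (19% of all promoters), 2 the palindrome with up to 2 letters off (1.84%) and 0 the exact palindrome. Those 2 are promoters of Fam107a, chr14:8309728-8310027 and chr14:8309730-8310029, and are also among the 3. They overlap almost fully, so nearly the same bases are counted in both, and these counts show no excess.

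**Figure D5:**
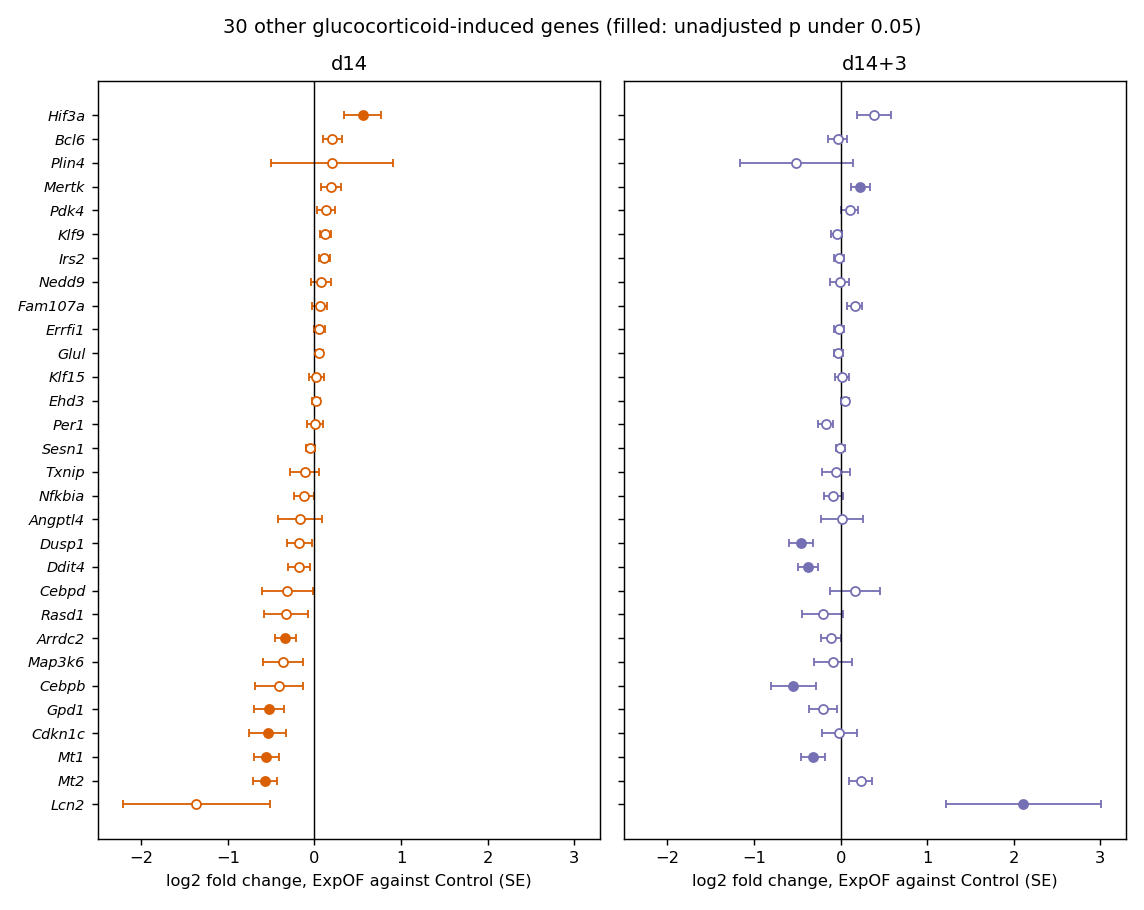
Log2 fold change of ExpOF against Control mice (horizontal axes) with its SE for 30 other glucocorticoid-induced genes (vertical axis, in order of the d14 value), on d14 at the left and d14+3 at the right. Filled points have an unadjusted p under 0.05: 1 above and 5 below 0 on d14, and 2 above and 4 below 0 on d14+3.

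The RNA of proteins that handle the receptor gave a mixed picture. Of 12 coregulators, which the receptors recruit to switch genes on or off, 0 passed the adjusted threshold on d14. At an unadjusted p under 0.05, 7 of the 12 were higher in ExpOF mice and 0 were lower, beside 13.1% and 13.6% of all genes. The median was 0.24, against -0.02 over all genes. A link between the coregulators and the receptors was not tested, and the coregulators were not followed in the alternative fits. Med1, the Mediator subunit that contacts nuclear receptors, stood at 0.24 (SE 0.0884, edgeR adjusted p = 0.139) and Ncoa1, a steroid receptor coactivator, at 0.23 (SE 0.0809, edgeR adjusted p = 0.137). On d14+3, 2 of the 12 were higher at an unadjusted p under 0.05, beside 2.91% of all genes, and the median was 0.08. These were Med14 at 0.20 and Smarca4 at 0.13, with edgeR adjusted p of 0.676 and 0.678.

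Of 12 chaperones and cochaperones of the receptor, 2 were lower at an unadjusted p under 0.05 on d14, beside 13.6% of all genes. These were Bag1 at -0.32 (SE 0.106, edgeR adjusted p = 0.135) and Hsp90ab1 at -0.18 (SE 0.0661, edgeR adjusted p = 0.139). On d14+3, 0 of the 12 had an unadjusted p under 0.05, and the smallest belonged to Hsp90aa1 at 0.07 and Hspa8 at 0.06 (edgeR adjusted p = 0.777 and 0.809). Among 6 tested genes of corticosteroid metabolism and transport, 0 had an unadjusted p under 0.05 on either day. The drug pump Abcb1a, which keeps some corticosteroids out of the brain, stood at 0.15 on d14 (edgeR adjusted p = 0.244) and 0.08 on d14+3 (edgeR adjusted p = 0.798), and the reductase Srd5a3 at -0.10 and -0.15 (edgeR adjusted p = 0.429 and 0.724).

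Of the 9 tested peptides and receptors of the hypothalamic-pituitary-adrenal axis, 3 were lower at an unadjusted p under 0.05 on d14 (13.6% of all genes) and 1 on d14+3 (4.2% of all genes), and 0 passed the adjusted threshold. Avp, which acts beside Crh on the pituitary, was at 68.0 ± 17.5 CPM in ExpOF d14 (SD, n = 6) against 120 ± 59.5 CPM in Control d14 (n = 5), and at 42.7 ± 11.7 CPM against 84.5 ± 41.2 CPM on d14+3 (n = 6 each). The log2 fold changes were -0.83 (SE 0.302, edgeR adjusted p = 0.139) and -0.99 (SE 0.294, edgeR adjusted p = 0.413). Ucn3, a ligand of the second Crh receptor, stood at -0.42 (SE 0.134, edgeR adjusted p = 0.135) and Crhbp, which binds and masks Crh, at -0.21 (SE 0.0957, edgeR adjusted p = 0.171) on d14. Crh itself was at 4.67 ± 1.02 CPM in ExpOF d14 against 3.84 ± 0.617 CPM in Control d14, a log2 fold change of 0.26 (edgeR adjusted p = 0.380). Crh was named after its values were seen. Markers of hypothalamic neurons, which include Avp, had 8 of 10 lower estimates on d14 and 7 of 10 on d14+3.

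Finally, each member was set beside the 2 genes whose log2 CPM followed it most closely over the 23 libraries, among 14172 genes with a mean of at least 50 counts. The receptors had the closest companions: Nr3c1 followed Tlk1 (r = 0.93) and Lgr4 (r = 0.92), and Nr3c2 followed Ptprg (r = 0.91) and Ano3 (r = 0.90). Zbtb16 followed Ift172 (r = 0.87) and Cyb5d1 (r = 0.83), and Hsd11b1 followed Fzd10 and Nr2f1 (both r = 0.85). For Hsd11b1 these values fell to 0.70 and 0.69 within groups, the largest fall among the 9 genes.

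Fkbp5 followed Fam107a and Pde4c (both r = 0.71), of which Fam107a is also in the list of 30. Sgk1 followed Gm19439 and Paqr8 (both r = 0.76), Tsc22d3 followed Gpr61 (r = 0.80) and Cables1 (r = 0.78), Cdkn1a followed Gjb6 (r = 0.82) and Mfsd2a (r = 0.71), and Sult1a1 followed St7 and Gpat3 (both r = 0.73). These values describe likeness over libraries that share depth and dissection, and they were not tested.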

How the data were processed

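Hypothalamic RNA of 24 mice was read as 51-base paired ends from poly-A selected, stranded libraries. The authors deposited whole-number read counts for each gene without normalization. The submitters' processing notes name STAR, featureCounts 1.6.4 and mm10, and the strand setting is not given in the sources used here. Symbols were taken by Ensembl ID from GENCODE. The study removed 1 Control d14 mouse, which was identified as replicate 4 by matching the mean expression values of the study's result table. No fold change or p-value of that table was used.

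Counts were tested in R 4.3.3 with edgeR 4.0.16 (TMM, filterByExpr at 10 counts per library and 15 over all, quasi-likelihood F-test with robust dispersion, 1 fit of the 4 groups over 23 libraries), with Benjamini-Hochberg adjustment over 18992 genes and a threshold of 0.05. CPM and RPKM were computed from the deposited counts with TMM factors and the file's gene lengths, and log2 CPM with a prior count of 2. Single genes were compared by two-sided exact permutation tests, and the relations over mice by 100000 permutations. The tests were tried on simulated data.

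The members, the 5 pathway lists and the marker lists were chosen with earlier results of these data known. Genes named are the 9 members, in each pathway list those past the adjusted threshold and the 2 with the smallest p on each day, and the 2 genes most like each member. Genes named beyond this rule are said to be, or belong to counts of 5 or fewer. Alternatives were DESeq2 1.42.0, its size factors, a filter that kept any gene with a count, 1 that asked for 10 in every library, all 24 libraries, only the groups compared, covariates for RIN or for kill month and extraction round, a replicate block, each cohort alone and each library left out, and, chosen after seeing the data, libraries with a RIN of at least 8 and residuals from RIN, cohort and extraction round. Nothing in the labels says that same-numbered mice were paired. Promoters are RefSeq's on GRCm38.p6.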

Additional observations from a re-analysis of the deposited data

Results flagged for a closer look

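Sgk1 stood at 57.8 CPM in Control d14+3 replicate 4, while the other 5 mice of that group lay between 25.3 and 36.5 CPM. The gap to the next mouse was 0.656 of the range of the group, above the critical value of 0.625 for 6 mice. It was the only such value among the 36 groups of a member and a condition that were examined, and chance alone gives about 1 in 20. The same mouse had the highest Tsc22d3 (107 CPM) and the highest Fkbp5 (39.3 CPM) of Control d14+3, and a RIN of 7.9. Without it, the log2 fold change of Sgk1 on d14+3 was 0.28.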

How the results depend on the processing

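No member was called under the main settings, under DESeq2, its size factors, either filter, all 24 libraries, only the groups compared, either set of covariates, either cohort alone or a RIN of at least 8. Leaving out 1 library at a time gave from 0 to 3 members called on d14. The 3 were Nr3c1, Nr3c2 and Hsd11b1 without Control d14 replicate 1, in a fit that called 4220 of 19206 genes. Between the days of Control mice, leaving out 1 library gave from 0 to 1 member called, and 0 in the other comparisons. The 1 was Nr3c1, without Control d14 replicate 1 (288 of 19206 genes called) or without Control d14+3 replicate 3 (238 of 18841). With all 24 libraries, 5 members had an exact permutation p under 0.05 on d14, against 2 with 23. A count by that test over all genes is not given. By edgeR, the unadjusted p was under 0.05 for Nr3c1, Nr3c2, Hsd11b1 and Zbtb16 with 24 libraries and for 3 members with 23. Over all genes it was under 0.05 for 7178 of 18767 and 5069 of 18992. The library added was Control d14 replicate 4, and its part in these counts was not tested. Of the 15 pairs of induced genes, 6 were related on deviations from the group means and 8 on residuals from group, RIN, kill month and extraction round, against 3. The permutations did not allow for the group means and covariates that were fitted, so the p behind 6 and 8 can be too small.

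With a replicate block, 0 members were called in each of the 5 comparisons, as without it. Same-numbered mice did not deviate together: 6 of 33 pairs of libraries had a correlation over 0.1, with a median of -0.03. Of 621 single-gene values under these alternatives, with the lowest and highest for single libraries left out, 578 kept their direction and side of the threshold, 39 changed sign without being called, and 4 passed the threshold. Zbtb16, Cdkn1a and Sult1a1 had as few as 81, 53 and 59 counts in a library. The part of low counts in their precision was not tested.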

Other observations

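Clock output genes follow the time of day. Of 9 such genes, 2 were higher in ExpOF mice at an unadjusted p under 0.05 on d14 and 2 on d14+3. Over all genes these shares were 13.1% and 2.91%, and 0 of the 9 passed the adjusted threshold. By sign, 5 were higher and 4 lower on each day. The median log2 fold changes were 0.001 and 0.02, against -0.02 and 0.01 over all genes. Per2 ran from 31.3 to 37.2 CPM in ExpOF d14 and from 23.1 to 32.3 CPM in Control d14, a log2 fold change of 0.37 (SE 0.0894, edgeR adjusted p = 0.135), and stood at 0.25 on d14+3 (SE 0.0849, edgeR adjusted p = 0.520). Nr1d2 stood at 0.34 on d14 (SE 0.101, edgeR adjusted p = 0.135), and Per3 at 0.18 on d14+3 (SE 0.0681, edgeR adjusted p = 0.575). The sum over the 9 genes ran from 738 to 806 CPM in Control d14 and from 792 to 806 CPM in ExpOF d14. The labels give no hour of death, so the time of day cannot be compared between the groups.

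Fos, an immediate early gene, was at 5.81 ± 1.79 CPM in ExpOF d14+3 and 9.38 ± 3.60 CPM in Control d14+3 (SD, n = 6 each), a log2 fold change of -0.70 (SE 0.227, edgeR adjusted p = 0.467). The genes in this section were picked with their values in view.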
